A study of Homo sapiens with 27 samples.

Results

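The genes described here are TP63 and TP73, the paralogues of the tumour suppressor p53, together with regulators of p53 and genes that p53 is known to induce. They were chosen by gene symbol and number 33 of the 57992 genes in the deposited table of expected counts. The rule itself uses symbols and no measured value. These genes and the other gene lists below were, however, chosen with earlier results of these data known. The gene of p53 itself is not among the 33 and was not analysed here.

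p53 is a transcription factor that is held low by the ubiquitin ligase MDM2 and its partner MDM4 and is released after DNA damage or other stress. It then induces genes that halt the cell cycle, repair DNA, change metabolism or start apoptosis, and it also induces MDM2, which closes a feedback loop. In acute myeloid leukaemia p53 is often restrained without being mutated, and its targets are read as a measure of its activity. p63 and p73 bind the same DNA element, a pair of p53 half-sites, and share part of the target set.

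The study sequenced total RNA of MOLM13, MV411 and SKNO1, which are 3 lines of human acute myeloid leukaemia, in 27 libraries with 9 per line. Every library came from cells given a constitutive lentiviral shRNA vector and harvested 3 days after inhibition began. In each line 3 libraries carried a scramble hairpin, 3 carried CARM1 hairpin 1 and 3 carried CARM1 hairpin 2, so the controls had the virus as well. CARM1, also called PRMT4, is an arginine methyltransferase that modifies histones and coactivators. SKNO1 was grown with GM-CSF at 10 ng/mL and the other lines without it. MOLM13 and MV411 are widely described as keeping wild-type p53 and SKNO1 as carrying mutant p53, which is background and was not read from these files. The labels do not say whether replicates were separate cultures or infections, so p-values measure only the spread between these samples, which may be technical.

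The hairpins lowered their target in every line. CARM1 was left at 19.0% ± 6.86 and 15.9% ± 4.20 of the scramble mean (SD, n = 3) with hairpins 1 and 2 in MOLM13. The remainders were 26.0% ± 1.29 and 12.6% ± 2.56 in MV411, and 42.1% ± 9.17 and 15.5% ± 0.449 in SKNO1. Depth ran from 25063577 to 53291599 expected counts per library. Of the leukocyte and myeloid markers, CD33, PTPRC and SPI1 were above 20 CPM in all 27 libraries, and none of the 8 markers on the myeloid list was at 0 in a whole group. Others were low in a line: ITGAM ran from 0.336 to 1.04 CPM and CSF1R from 0.885 to 4.18 CPM in SKNO1, and MPO from 1.46 to 3.56 CPM in MV411. In SKNO1, CD68 ran from 3.00 to 11.5 CPM and LYZ from 8.84 to 20.8 CPM. CD68 in MV411 ran from 46.5 to 50.1 CPM in scramble, 93.0 to 138 with hairpin 1 and 139 to 180 with hairpin 2. The summed list ran from 703 to 1127 CPM in MV411 scramble, from 1118 to 1413 with hairpin 1 and from 1537 to 2162 with hairpin 2. It ran from 907 to 4123, 3557 to 5972 and 1294 to 5695 in the same order in MOLM13, and from 1746 to 3652, 2462 to 5002 and 1995 to 2912 in SKNO1. The part of these markers in the results was not tested. Markers of T cells, B cells, erythroid cells, epithelium and fibroblasts summed to at most 2.25 CPM per list in any library. Mitochondrial ribosomal RNA took 22.8% to 27.8% of counts in the scramble libraries of MOLM13 and MV411 and 26.1% to 34.9% in their knockdown libraries, against at most 0.429% in SKNO1. Short structured RNAs took 17.7% to 19.9% in SKNO1 scramble and 23.3% to 28.7% in its knockdown libraries. The part of these abundant RNAs in the results was not tested beyond the fit that leaves them out.

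Half-sites of the element that p53 reads are shown first, for those promoters in which any was found. RefSeq promoters of build GRCh38.p14, each 250 bases before to 50 after a transcription start, were matched by symbol for 27 of the 33 genes, which gave 42 promoters. No entry was matched for RRM2B, TP53INP1, TNFRSF10A, TNFRSF10B, PHLDA3 or GADD45A. The 10-letter p53 half-site, searched on both strands, lay in 7 of the 42 promoters (16.7%), beside 2329 of all 35116 promoters in the table (6.63%). A pair of half-sites with a spacer of at most 13 bases lay in 1 of the 42, a promoter of DDB2, and in 10 of the 35116 (0.028%). Other promoters matched for DDB2, FAS, FDXR and SESN1 held no half-site. The half-sites are printed below in capitals, 5′ to 3′ on the strand of the gene. Up to 10 bases on either side are in lower case, with none past the transcription start. In DDB2, where the pair lies 5 and 16 bases past the start, no flank is shown.
DDB2, chr11:47214979-47214999, plus strand: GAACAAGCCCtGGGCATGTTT
AEN, chr15:88621296-88621325, plus strand: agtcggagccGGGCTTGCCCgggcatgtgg
FAS, chr10:88991299-88991328, plus strand: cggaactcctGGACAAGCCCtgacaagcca
FDXR, chr17:74872995-74873015, minus strand: gggcaggagcGGGCTTGCCCt
PLK2, chr5:58460199-58460228, minus strand: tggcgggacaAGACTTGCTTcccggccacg
RPS27L, chr15:63157517-63157546, minus strand: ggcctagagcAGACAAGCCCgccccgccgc
SESN1, chr6:109009018-109009047, minus strand: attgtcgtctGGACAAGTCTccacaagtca

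A match is a description of the letters and not evidence of binding, and sites in introns or farther away were not searched. Among these 7 genes, PLK2 passed the test for a hairpin against scramble, in MV411 with hairpin 1. In the fit with the replicate number as a term, FAS did so in MV411 with both hairpins and in MOLM13 with hairpin 1. SESN1 and AEN passed the test between the hairpins of SKNO1, and DDB2 in a difference between lines. All values below are CPM (library-size-normalized counts, scaled by TMM over the 27 libraries), listed for replicates 1, 2 and 3 in that order. They are not divided by gene length, so they compare libraries and not genes. Fold changes are log2 values from edgeR's quasi-likelihood fit. The standard error beside each was derived as the absolute fold change over the square root of the test's F statistic. Adjusted p-values are Benjamini-Hochberg values over the whole tested table, called under 0.05. In bulk RNA, fewer cells that express a gene and less RNA per cell cannot be told apart.

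The scramble libraries differed by line, and SKNO1 stood lowest for most of these genes. SKNO1 alone was grown with GM-CSF and held little mitochondrial ribosomal RNA. In comparisons of SKNO1 with the other lines, these differences and the line itself cannot be told apart. Against MOLM13, 22 of the 33 were lower in SKNO1 and 4 were higher, beside 28.8% of all genes lower and 27.2% higher. The median log2 difference was -1.15 over the 33 genes and 0.00 over all 19340 genes tested. Against MV411, 23 were lower in SKNO1 and 4 higher, beside 28.4% and 27.1% of all genes, with a median of -0.87 against 0.01. MV411 and MOLM13 were closer. In MV411, 4 genes were higher and 8 lower than in MOLM13, beside 14.8% and 16% of all genes, and the median was 0.03 against 0.00.

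**Figure D1:**
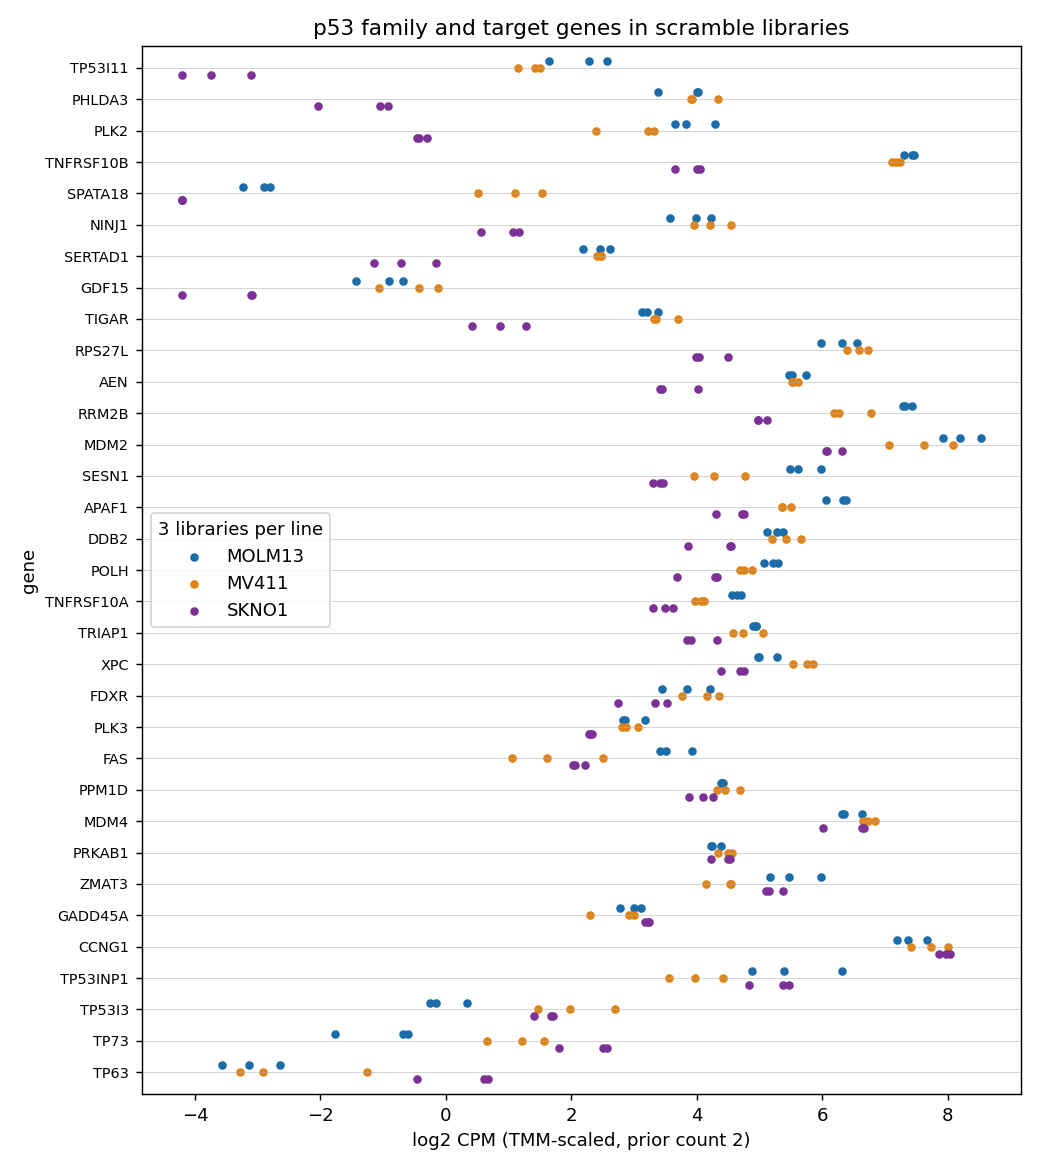
Level of each of the 33 genes (rows) in the 9 scramble libraries, as log2 CPM on the horizontal axis, with 1 point per library coloured by line. Genes are ordered by SKNO1 minus the other lines. SKNO1 points lie to the left for the upper rows (TP53I11, PHLDA3, PLK2, TNFRSF10B) and to the right for TP63 and TP73 in the lowest rows.

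The paralogues went the other way from most targets. TP63, on chromosome 3 from 189631416 to 189897279 (GENCODE 29, GRCh38, plus strand), was at 1.47, 0.669 and 1.54 CPM in SKNO1 scramble. It was at 0.363, 0.0490 and 0.0794 CPM in MV411 and at 0.106, 0.0300 and 0.0600 CPM in MOLM13. Every SKNO1 library was above every library of the other lines, by a log2 difference of 4.16 ± 0.69 (SE) from MOLM13 (adjusted p = 0.000335) and of 2.99 ± 0.62 from MV411 (adjusted p = 0.00165). The low levels rest on few reads, with 8 counts in the 3 MOLM13 scramble libraries together, 16 in MV411 and 176 in SKNO1.

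TP73, on chromosome 1 from 3652520 to 3736201 (plus strand), was at 5.61, 3.46 and 5.85 CPM in SKNO1 scramble. MV411 scramble had 1.52, 2.25 and 2.91 CPM and MOLM13 scramble 0.608, 0.571 and 0.240 CPM. The 3 lines did not overlap. SKNO1 exceeded MOLM13 by 3.43 ± 0.40 (adjusted p = 2.37e-05) and MV411 by 1.16 ± 0.35 (adjusted p = 0.0143), and MV411 exceeded MOLM13 by 2.27 ± 0.39 (adjusted p = 0.00111). The difference between SKNO1 and MV411 lost the threshold without MV411 scramble replicate 1 or SKNO1 scramble replicate 1 or 3. TP73 overlaps TP73-AS1 and WRAP73 on the opposite strand, and its counts held shared reads in 24 of 27 libraries. Whether the counting used strand is not given in the sources used here, so reads of these neighbours cannot be told apart from those of TP73.

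Of the inhibitors, MDM2 differed and MDM4 did not pass the test between any lines. MDM2 (chromosome 12, 68808176 to 68850686, plus strand) was at 368, 293 and 244 CPM in MOLM13 scramble. MV411 had 271, 196 and 133 CPM and SKNO1 67.1, 79.3 and 66.4 CPM. The SKNO1 libraries were below all others, with log2 differences of -2.07 ± 0.25 from MOLM13 (adjusted p = 2.99e-05) and -1.49 ± 0.24 from MV411 (adjusted p = 0.000314). The MOLM13 and MV411 libraries overlapped (-0.59 ± 0.24, adjusted p = 0.0868). MDM4, which binds p53 and blocks its activity, was at 79.7, 81.7 and 99.4 CPM in MOLM13 and at 101, 64.8 and 99.4 CPM in SKNO1. It was at 100, 114 and 106 CPM in MV411. PPM1D, the phosphatase that switches off p53 signalling, was at 21.4, 20.97 and 20.9 CPM in MOLM13, at 25.7, 19.9 and 21.8 CPM in MV411 and at 17.1, 19.2 and 14.7 CPM in SKNO1. PPM1D was lower in SKNO1 than in MV411 by -0.39 ± 0.15 (adjusted p = 0.0460), a call that was lost in 8 of 11 alternative fits.

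Apoptosis genes held the most significant line difference. TNFRSF10B, a death receptor for the ligand TRAIL encoded on chromosome 8, was at 176, 158 and 172 CPM in MOLM13 scramble. It was at 138, 150 and 145 CPM in MV411 and at 16.1, 12.5 and 16.5 CPM in SKNO1. The SKNO1 libraries were far below the rest, by -3.48 ± 0.15 from MOLM13 (adjusted p = 1.05e-08) and -3.25 ± 0.15 from MV411 (adjusted p = 1.6e-08). PHLDA3, which represses the survival kinase Akt, was at 16.1, 16.2 and 10.4 CPM in MOLM13, at 15, 20.1 and 15.2 CPM in MV411 and at 0.189, 0.475 and 0.431 CPM in SKNO1. Its differences in SKNO1 were -5.26 ± 0.32 from MOLM13 and -5.50 ± 0.33 from MV411 (adjusted p = 1.57e-07 and 1.22e-07). NINJ1, a membrane protein that ruptures the plasma membrane of dying cells, was at 2.04, 1.43 and 2.20 CPM in SKNO1. MOLM13 had 15.9, 18.6 and 11.9 CPM and MV411 15.4, 18.4 and 23.2 CPM, so SKNO1 again did not overlap (-3.02 ± 0.24 and -3.32 ± 0.24, adjusted p = 1.07e-06 and 5.62e-07). APAF1, the core of the apoptosome, was graded. It was at 80.5, 83.5 and 66.8 CPM in MOLM13, at 45.1, 40.9 and 40.8 CPM in MV411 and at 26.9, 19.8 and 26.3 CPM in SKNO1, with no overlap between any lines.

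Genes of stress signalling, nucleotide supply and metabolism were also lower in SKNO1. PLK2, a polo-like kinase induced by stress, was at 0.672, 0.691 and 0.760 CPM there, against 19.5, 12.6 and 14.1 CPM in MOLM13 and 9.96, 9.26 and 5.21 CPM in MV411. The differences were -4.43 ± 0.31 and -3.51 ± 0.30 (adjusted p = 3.91e-07 and 2.14e-06). RRM2B, the p53-induced subunit of ribonucleotide reductase, was at 156, 159 and 172 CPM in MOLM13, at 110, 72.9 and 77.4 CPM in MV411 and at 34.5, 31.5 and 31.5 CPM in SKNO1. All 3 line pairs were separate for RRM2B, and SKNO1 was lower than MOLM13 by -2.31 ± 0.17 (adjusted p = 5.72e-07). RPS27L, a ribosomal protein paralogue, was at 16.3, 22.6 and 15.9 CPM in SKNO1 and at 107, 83.8 and 95.9 CPM in MV411. This difference was -2.37 ± 0.19 (adjusted p = 1.57e-06).

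SESN1, a sestrin that restrains growth signalling under stress, was at 63.4, 48.7 and 44.8 CPM in MOLM13 and at 27.1, 19.3 and 15.5 CPM in MV411. MV411 was lower by -1.34 ± 0.21 (adjusted p = 0.0005). TP53I3, a quinone oxidoreductase, had the opposite order, with 1.22, 0.781 and 0.840 CPM in MOLM13, 6.40, 3.90 and 2.73 CPM in MV411 and 3.13, 3.20 and 2.59 CPM in SKNO1. MOLM13 lay below both other lines, and MV411 exceeded it by 2.19 ± 0.34 (adjusted p = 0.000543), while MV411 and SKNO1 overlapped. CCNG1, cyclin G, was the remaining gene that was higher in SKNO1 than in MOLM13, by 0.55 ± 0.17 (adjusted p = 0.0151). ZMAT3, an RNA-binding zinc finger protein, and TP53INP1, a stress-induced nuclear protein, were higher in SKNO1 than in MV411 by 0.81 ± 0.21 and 1.24 ± 0.34 (adjusted p = 0.00564 and 0.00905).

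For 3 targets SKNO1 scramble had almost no reads. SPATA18, a protein of mitochondrial quality control, had 0 counts in the 3 SKNO1 scramble libraries, 9 in those of MOLM13 and 223 in those of MV411. Against a floor of 3 counts over the SKNO1 group, MV411 was 97.3-fold higher and MOLM13 3.53-fold higher. MV411 exceeded MOLM13 by 4.76 ± 0.47 on the log2 scale (adjusted p = 6.3e-05). TP53I11 had 4 counts in SKNO1 scramble, 531 in MOLM13 and 278 in MV411, which is a 156-fold (95% counting interval 60.7 to 576) and a 91.0-fold (35.2 to 336) higher level. GDF15, a secreted stress cytokine, had 6 counts in SKNO1, 55 in MOLM13 and 72 in MV411, ratios of 10.8 (4.65 to 30.7) and 15.7 (6.88 to 44.2). The intervals cover counting error only, and the folds over the floor take no account of counting error in MOLM13 and MV411. The remaining members that were lower in SKNO1 than in both other lines were SESN1, SERTAD1, TIGAR, AEN, TNFRSF10A, POLH, TRIAP1, DDB2, PLK3 and XPC, with log2 differences from -0.46 for XPC to -3.16 for SERTAD1. GADD45A and PRKAB1 passed the test in no pair of lines.

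In MOLM13, TNFRSF10B and MDM2 rose with hairpin 1, and TNFRSF10B and GDF15 rose with hairpin 2. No member fell. These are 2 higher of the 31 tested members for hairpin 1, beside 2.13% of all genes higher and 4.25% lower. They are 2 of 31 for hairpin 2, beside 3.39% and 6.03%. Most members leaned upward without passing the test. With hairpin 1, 25 of the 31 had a positive fold change and the median was 0.58, beside 0.01 over all 17732 genes tested. With hairpin 2, 26 were positive and the median was 0.45, beside 0.07. TP63 and SPATA18 were too low to be tested in this line.

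TNFRSF10B was at 277, 231 and 267 CPM with hairpin 1 and at 240, 274 and 321 CPM with hairpin 2, all above the 158 to 176 CPM of scramble. The fold changes were 0.65 ± 0.16 (adjusted p = 0.0400) and 0.78 ± 0.16 (adjusted p = 0.0177). The related receptor TNFRSF10A had values of -0.38 ± 0.16 and -0.40 ± 0.16, which did not pass the test (adjusted p = 0.193 and 0.134). Reads of TNFRSF10A were shared with other genes in all 27 libraries. MDM2 was at 575, 663 and 751 CPM with hairpin 1, above every scramble library (1.17 ± 0.30, adjusted p = 0.0465). With hairpin 2 it was at 689, 263 and 571 CPM, where replicate 2 lay within the scramble range, and the value of 0.80 ± 0.30 missed the threshold (adjusted p = 0.112). GDF15 was at 0.317, 0.571 and 0.480 CPM in scramble and at 0.860, 2.33 and 5 CPM with hairpin 2 (2.63 ± 0.61, adjusted p = 0.0268). Hairpin 1 gave 2.17, 0.813 and 1.12 CPM of GDF15, also above scramble, with 1.61 ± 0.61 (adjusted p = 0.147). FAS, the receptor of the Fas ligand, had the next smallest p with hairpin 1 and missed the threshold (1.05 ± 0.28, adjusted p = 0.0503). The same-number libraries of scramble and hairpin 1 had correlated deviations (r = 0.47, 0.25 and 0.47). With the replicate number as a term, TNFRSF10B missed the threshold (adjusted p = 0.0613), and MDM2, FAS and TP53INP1 passed it (adjusted p = 0.0475, 0.0307 and 0.0427). That fit called 3 members higher and 0 lower, beside 1.87% and 3.79% of all genes. Of 11 alternative fits, the hairpin 1 call was kept in 3 for TNFRSF10B and in 5 for MDM2. The hairpin 2 call was kept in 9 for TNFRSF10B and in 5 for GDF15, which was also lost with the replicate number as a term.

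Hairpin 2 replicate 2 stood apart from its group in MOLM13. It had the lowest values of the 3 for MDM2, PPM1D, CCNG1 and RPS27L, at 263, 12.9, 107 and 52.3 CPM, while its CARM1 level of 4.22 CPM lay between 4.87 and 2.82. The myeloid gene LYZ was at 712 CPM there against 4992 and 3042 in the other replicates, and structured RNAs took 13.3% of its counts against 21.9% and 17.3%. The part of these differences in the result was not tested. Without this library 5 members rose instead of 2, MDM2 among them (1.10 ± 0.20, adjusted p = 0.0212), and GDF15 missed the threshold (adjusted p = 0.0516). The share of all genes called without this library is not given, so the count of 5 has no background beside it. With hairpin 1, the calls of TNFRSF10B and MDM2 were both lost when any 1 of the 6 libraries was dropped. Without scramble replicate 1, 1 other member was called, and without any of the other libraries 0 were. For hairpin 2 it was 0 without scramble replicate 2 or 3 and 1 without hairpin 2 replicate 3.

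**Figure D2:**
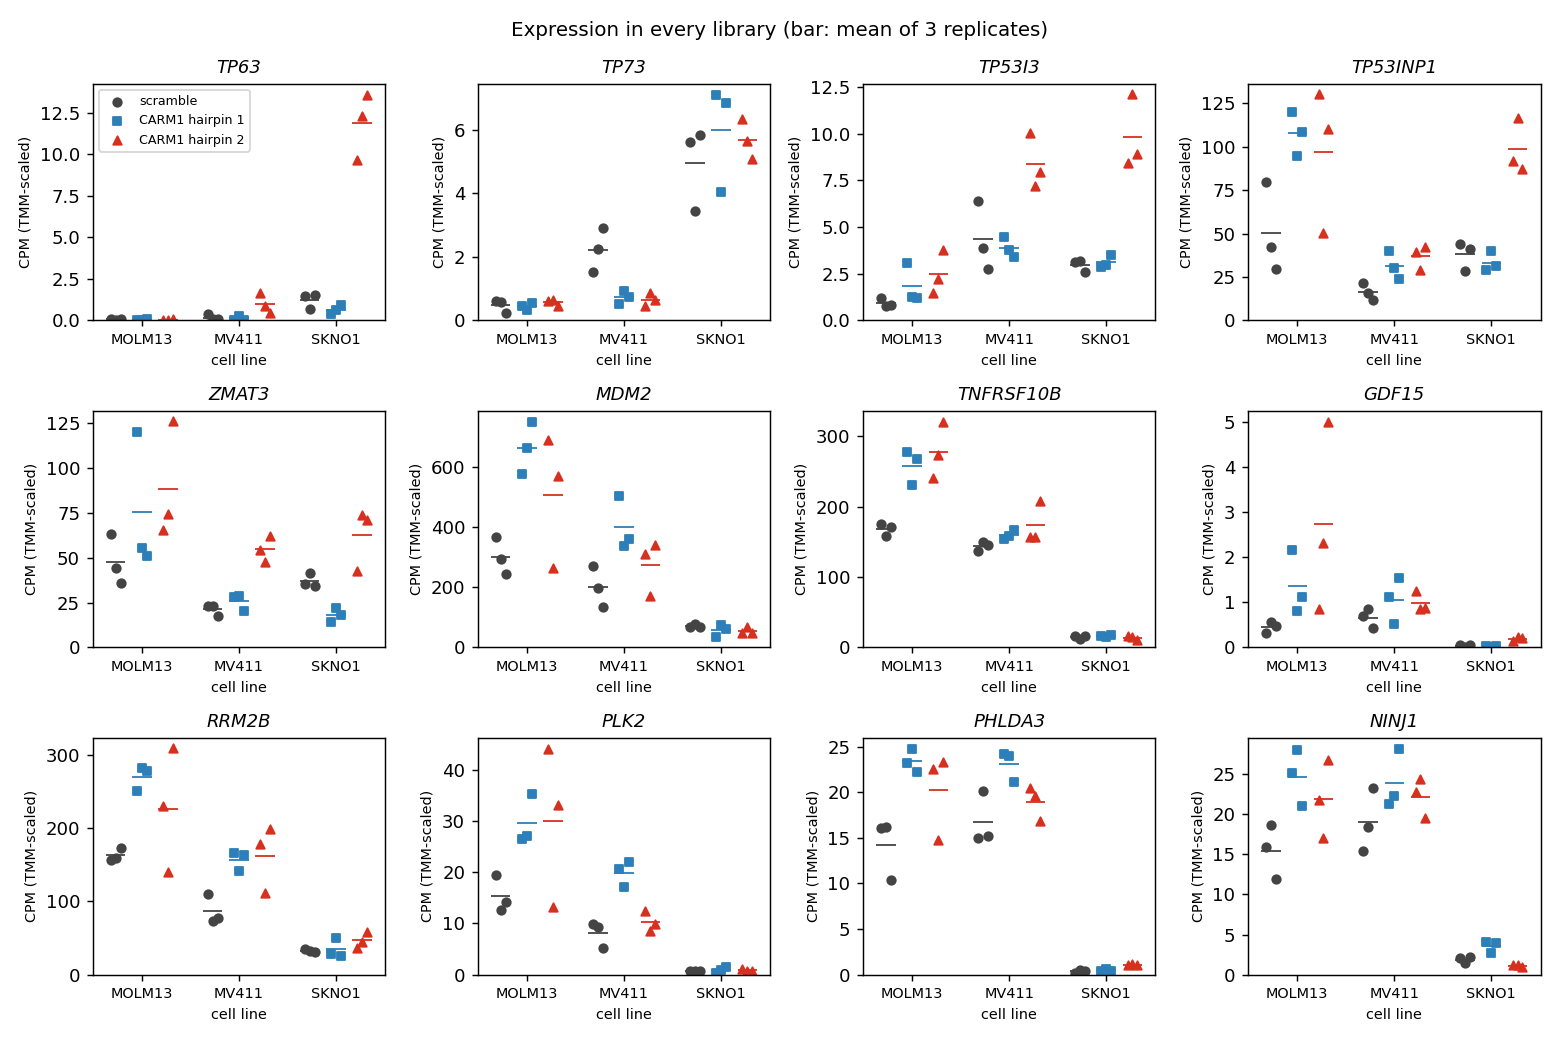
CPM of 12 of the genes in every library, on linear axes from 0, by line on the horizontal axis, with black circles for scramble, blue squares for hairpin 1, red triangles for hairpin 2 and a bar at the mean of 3 replicates. TP63 reaches 9.68 to 13.6 CPM with hairpin 2 in SKNO1, and TP73 in MV411 lies below 1 CPM with both hairpins.

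In MV411, PLK2, RRM2B and TP53INP1 rose and TP73 fell with hairpin 1. With hairpin 2, ZMAT3, TP53INP1, RRM2B, SERTAD1, TP53I3 and TP63 rose and TP73 fell. These are 3 higher and 1 lower of 33 with hairpin 1, beside 2.37% of all genes higher and 4.13% lower. With hairpin 2 they are 6 higher and 1 lower of 33, beside 8.38% and 10.2%. The median fold change of the 33 was 0.22 with hairpin 1 and 0.29 with hairpin 2, beside 0.00 over all genes in both.

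TP73 fell most clearly of the family. From 1.52, 2.25 and 2.91 CPM in scramble it went to 0.527, 0.926 and 0.739 CPM with hairpin 1 and to 0.462, 0.846 and 0.626 CPM with hairpin 2. No knockdown library reached the lowest scramble library, and the fold changes were -1.60 ± 0.34 (adjusted p = 0.0194) and -1.76 ± 0.35 (adjusted p = 0.00599). The hairpin 2 call was kept in all 11 alternative fits, and the hairpin 1 call was lost when any of 3 single libraries was left out. TP63 was at 1.64, 0.884 and 0.455 CPM with hairpin 2, above all scramble libraries (2.67 ± 0.81, adjusted p = 0.0416), which rests on 85 counts against 16. With hairpin 1 it was at 0.0329, 0.278 and 0.0321 CPM and overlapped scramble. The TP63 call was lost in 4 of the 6 fits with a library left out (adjusted p up to 0.186).

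A pair of stress genes rose with both hairpins. TP53INP1 went from 21.4, 15.7 and 11.7 CPM to 39.7, 30.1 and 24.0 CPM with hairpin 1 and to 39.5, 29.1 and 42.3 CPM with hairpin 2. The scramble libraries lay below all of these (0.94 ± 0.25, adjusted p = 0.0492, and 1.20 ± 0.25, adjusted p = 0.00756). RRM2B was at 166, 141 and 163 CPM with hairpin 1 and at 177, 111 and 198 CPM with hairpin 2, above its scramble libraries (0.85 ± 0.22, adjusted p = 0.0467, and 0.92 ± 0.22, adjusted p = 0.0157). Of 11 alternative fits, the hairpin 1 call was kept in 5 for TP53INP1 and in 6 for RRM2B. The hairpin 2 call was kept in all 11 for TP53INP1 and in 9 for RRM2B. ZMAT3 (chromosome 3, 179017223 to 179072279, minus strand) was at 23.3, 22.9 and 17.6 CPM in scramble and at 28.3, 28.8 and 20.1 CPM with hairpin 1, which overlapped. With hairpin 2 it was at 54.5, 47.8 and 61.8 CPM, and this rise of 1.38 ± 0.18 had the smallest p of the members in MV411 (adjusted p = 0.000721).

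PLK2 did the reverse. It was at 20.7, 17.0 and 21.9 CPM with hairpin 1 (1.28 ± 0.24, adjusted p = 0.0108) and at 12.4, 8.53 and 9.87 CPM with hairpin 2, where it overlapped scramble. TP53I3 was at 10.0, 7.19 and 7.94 CPM with hairpin 2, above scramble (0.97 ± 0.29, adjusted p = 0.0389), and at 4.48, 3.77 and 3.40 CPM with hairpin 1. SERTAD1, a cofactor of cell cycle transcription, was at 5.28, 5.51 and 5.48 CPM in scramble and at 9.14, 7.50 and 7.26 CPM with hairpin 2 (0.58 ± 0.16, adjusted p = 0.0253). The hairpin 2 calls were kept in 6 of 11 alternative fits for SERTAD1 and in 7 for TP53I3 (adjusted p up to 0.125 and 0.148). That of PLK2 with hairpin 1 was kept in 10. The hairpin 1 count of 4 was 0 without hairpin 1 replicate 1, 2 without its replicate 2, and 1 without its replicate 3 or scramble replicate 3. The hairpin 2 count of 7 was 3 without scramble replicate 3 or hairpin 2 replicate 1, and 4 without scramble replicate 2.

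Replicates of MV411 with the same number had correlated deviations, although the labels state no pairing. The fit with the replicate number as a term is therefore given beside these counts. It called 8 members with hairpin 1, 6 higher and 2 lower, beside 5.2% of all genes higher and 7.43% lower. MDM2, FAS and PHLDA3 were then added to the higher genes, at 1.00 ± 0.22, 1.15 ± 0.26 and 0.47 ± 0.12 (adjusted p = 0.0169, 0.0163 and 0.0332). TP53I11 was added to the lower ones (-0.82 ± 0.23, adjusted p = 0.0421). With hairpin 2 it called 11, 10 higher and 1 lower, beside 12.5% and 14.8%. FAS, TIGAR, SPATA18 and CCNG1 were the added genes, from 1.05 ± 0.26 for FAS to 0.49 ± 0.14 for CCNG1.

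In SKNO1, hairpin 1 called no member and hairpin 2 raised 6. With hairpin 1 edgeR gave 0 of 30 tested members in either direction, beside 0.255% of all genes higher and 0.277% lower. At an unadjusted p under 0.05 there were 6 members and 3124 of all 18430 genes. DESeq2 called 4 members, 2 higher and 2 lower, beside 3.3% and 1.95% of all genes. With hairpin 2 it was 6 higher and 0 lower of 30, beside 5.54% and 5.69% of all genes. The median fold change was -0.01 with hairpin 1 and 0.18 with hairpin 2, beside -0.02 and 0.00 over all 18430 genes. Hairpin 1 left more CARM1 in this line than hairpin 2 did, as given above, and the part of this in the contrast was not tested. GDF15, TP53I11 and SPATA18 were not tested here.

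TP63 rose most. It was at 9.68, 12.3 and 13.6 CPM with hairpin 2 against 1.47, 0.669 and 1.54 CPM in scramble and 0.361, 0.610 and 0.921 CPM with hairpin 1. Every hairpin 2 library was above every other library of the study (3.27 ± 0.33 against scramble, adjusted p = 0.000212), on 1494 counts in total against 176 in scramble. Hairpin 1 gave -0.95 ± 0.35, which did not pass the test (adjusted p = 0.202). TP73, the other paralogue, was at 7.11, 4.04 and 6.86 CPM with hairpin 1 and at 6.33, 5.67 and 5.08 CPM with hairpin 2, overlapping scramble in both cases (0.28 ± 0.25 and 0.19 ± 0.25, adjusted p = 0.623 and 0.676).

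TP53I3 (chromosome 2, 24077433 to 24085861, minus strand) was at 8.40, 12.1 and 8.92 CPM with hairpin 2, above the 2.59 to 3.20 CPM of scramble (1.71 ± 0.21, adjusted p = 0.000645). TP53INP1 was at 92.1, 116 and 87.2 CPM with hairpin 2, against 44.3, 28.5 and 41.2 CPM in scramble (1.37 ± 0.20, adjusted p = 0.00184). With hairpin 1 both overlapped scramble, TP53I3 at 2.86, 2.99 and 3.51 CPM and TP53INP1 at 28.8, 39.7 and 31.2 CPM. The calls of TP63, TP53I3 and TP53INP1 with hairpin 2 were kept in all 11 alternative fits.

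PHLDA3 rose with hairpin 2 from its low level to 1.04, 1.19 and 1.04 CPM (1.56 ± 0.36, adjusted p = 0.0178). SERTAD1 rose from 0.399, 0.842 and 0.554 CPM to 1.30, 2.20 and 1.20 CPM (1.37 ± 0.35, adjusted p = 0.0270). PLK3, a stress-activated polo-like kinase, went from 4.79, 4.84 and 4.99 CPM to 6.69, 9.27 and 10.9 CPM (0.87 ± 0.21, adjusted p = 0.0223). For each of these the hairpin 2 libraries lay above all scramble libraries. All 3 calls were lost when scramble replicate 1 or 3 or hairpin 2 replicate 2 or 3 was left out. Scramble replicates 1 and 3 of SKNO1 were the closest pair of replicates in the study, with a chi-square per gene of 7.76 against 23.2 for the next pair. The count of 6 was 3 without either of them, and also 3 without hairpin 2 replicate 2 or 3.

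**Figure D3:**
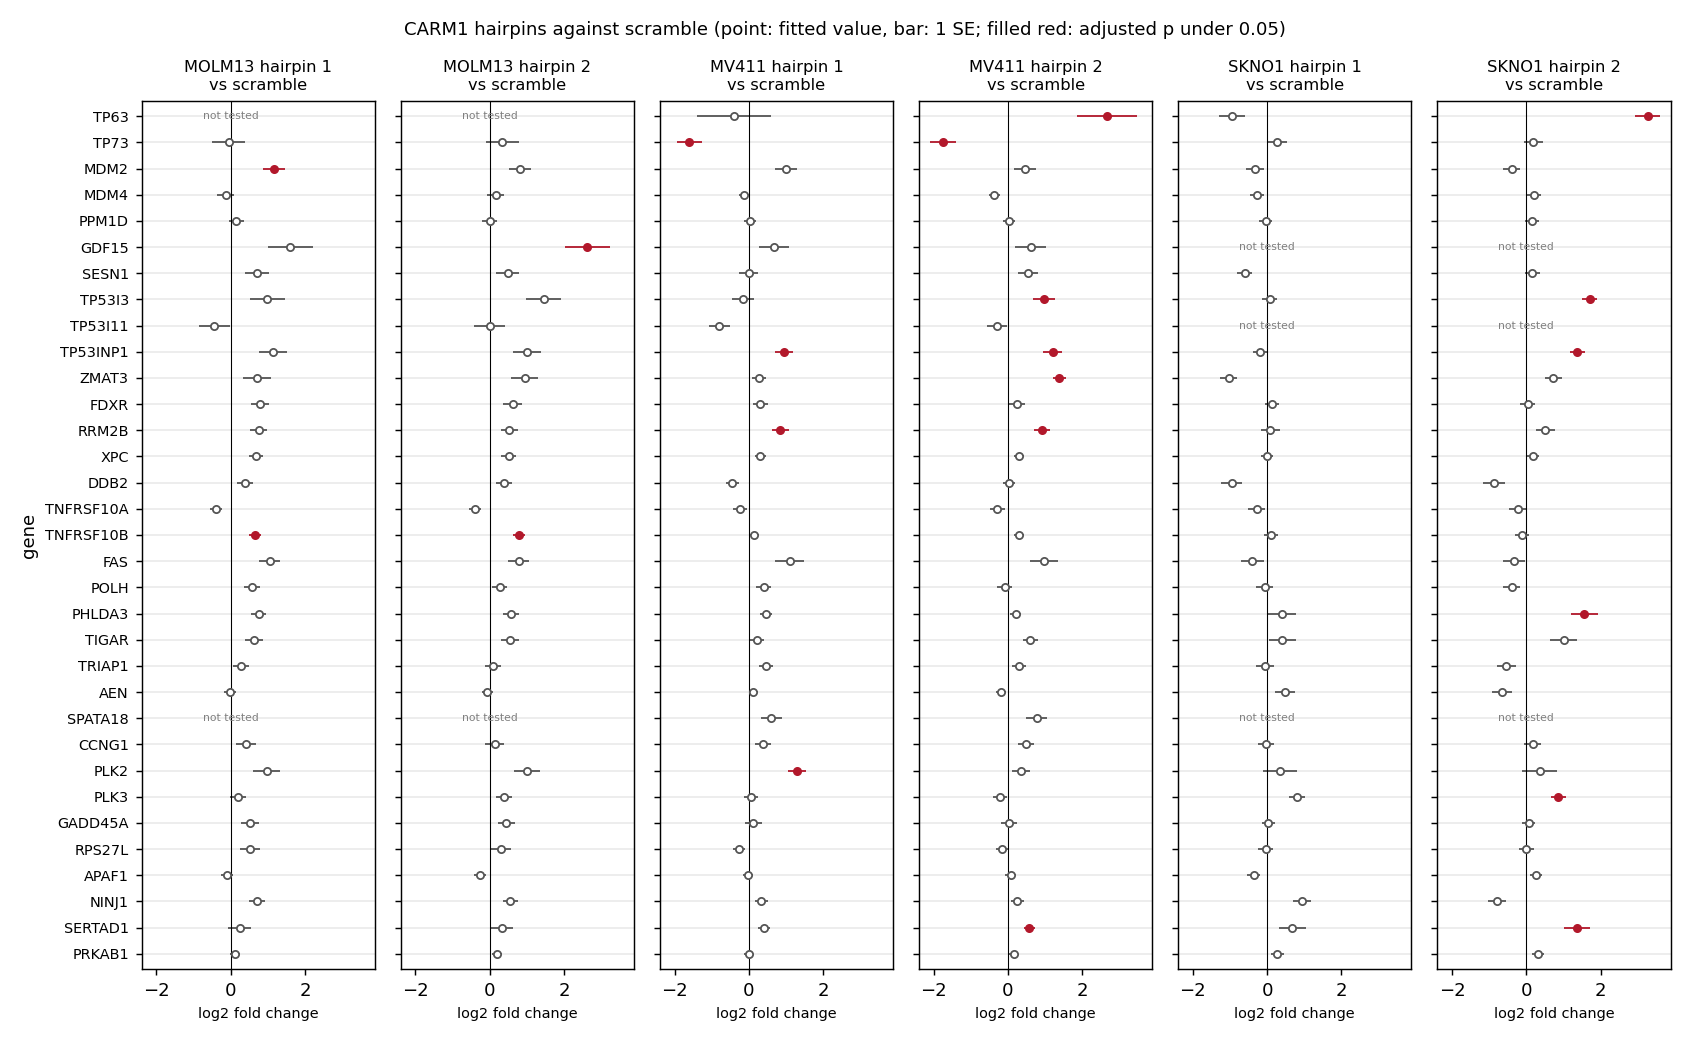
Log2 fold change (horizontal axis) of each of the 33 genes (rows) for each hairpin against scramble, 1 panel per line and hairpin. Points are fitted values, bars are 1 SE, and filled red points have an adjusted p under 0.05, which for hairpins 1 and 2 number 2 and 2 (MOLM13), 4 and 7 (MV411), and 0 and 6 (SKNO1).

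MDM4 and PPM1D passed the test for neither hairpin in any line. Their fold changes ran from -0.37 (MV411, hairpin 2) to 0.21 (SKNO1, hairpin 2) for MDM4 and from -0.033 to 0.15 for PPM1D. MDM4 was at 61.9 to 119 CPM in the knockdown libraries of MOLM13, 68.9 to 102 CPM in those of MV411 and 60.4 to 116 CPM in those of SKNO1. PPM1D was at 12.9 to 25.4 CPM, 19.0 to 26.3 CPM and 14.3 to 21.2 CPM. MDM2 had values of -0.33 ± 0.24 and -0.40 ± 0.24 in SKNO1, at 36.0, 73.2 and 60.9 CPM with hairpin 1 and 49.5, 67.4 and 46.6 CPM with hairpin 2. In MV411 it was at 503, 338 and 359 CPM with hairpin 1, all above scramble, and at 309, 172 and 340 CPM with hairpin 2, without passing the test in the fit that leaves the replicate number out (0.99 ± 0.30 and 0.46 ± 0.29, adjusted p = 0.0769 and 0.326). Its counts held shared reads in all 27 libraries.

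The DNA repair genes XPC and DDB2, which recognise damage for excision repair, and POLH, the polymerase that copies past lesions, passed for no hairpin against scramble. Their fold changes ran from -0.95 (DDB2, SKNO1, hairpin 1) to 0.69 (XPC, MOLM13, hairpin 1). FDXR, a mitochondrial reductase, lay between 0.035 and 0.78. TIGAR, which lowers glycolysis, lay between 0.22 and 1.01 and was highest in SKNO1 with hairpin 2 (adjusted p = 0.0908). GADD45A, a growth arrest gene, lay between 0.027 and 0.52, and CCNG1 between -0.024 and 0.50. TRIAP1, an apoptosis inhibitor, lay between -0.53 and 0.46. RPS27L, APAF1, PRKAB1 (a subunit of the kinase AMPK), AEN (an apoptosis nuclease), NINJ1, SESN1 and FAS also passed for no hairpin in any line in the fit without the replicate number.

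**Figure D4:**
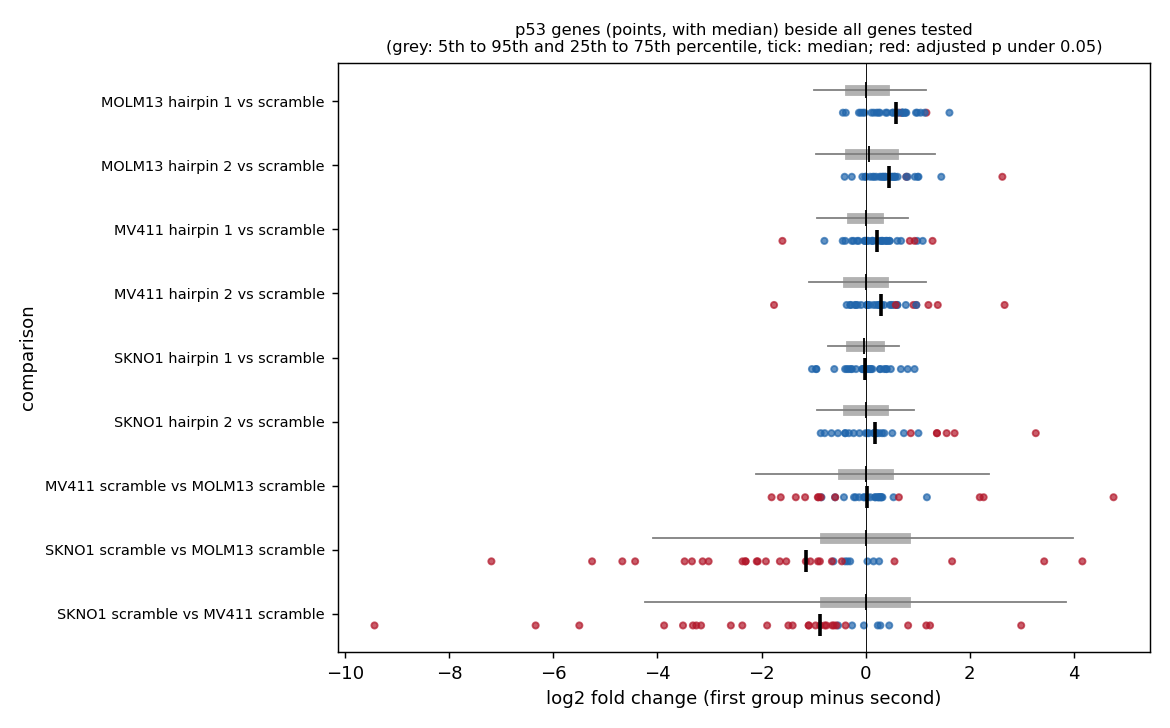
Log2 fold change (horizontal axis) of the tested p53 genes as points with a black tick at their median, beside the 5th to 95th and 25th to 75th percentiles of all genes in grey, for the 6 hairpin comparisons and the 3 pairs of scramble groups. The medians sit at 0.58 and 0.45 in MOLM13 and at -1.15 and -0.87 for SKNO1 against the other lines.

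The hairpins were also compared directly within each line. In MOLM13 edgeR called 0 of 31 members, beside 0% of all genes in each direction. At an unadjusted p under 0.05 there were 0 members and 335 of all 17732 genes, and DESeq2 called 0 members, beside 0.00564% of all genes higher and 0% lower. In MV411, hairpin 2 was above hairpin 1 for 3 of 33 members and below for 1, beside 5.86% and 5.62% of all genes. ZMAT3 was higher by 1.11 ± 0.18 (adjusted p = 0.00343), TP53I3 by 1.13 ± 0.29 and TP63 by 3.06 ± 0.85 (adjusted p = 0.0295 and 0.0412). PLK2 was lower by -0.93 ± 0.24 (adjusted p = 0.0295). The ZMAT3 call was kept in all 11 alternative fits, and the others were lost in 4 to 6 of them. The count of 4 was 1 without hairpin 1 replicate 1 or 3 or hairpin 2 replicate 1, and 2 without replicate 2 of either hairpin.

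In SKNO1, hairpin 2 was above hairpin 1 for 6 of 30 members and below for 2, beside 4.52% and 5% of all genes. TP63 was higher by 4.21 ± 0.35 (adjusted p = 6.85e-05), TP53I3 by 1.64 ± 0.21 (adjusted p = 0.000615) and TP53INP1 by 1.56 ± 0.20 (adjusted p = 0.000746). ZMAT3 was at 14.2, 22.1 and 18.2 CPM with hairpin 1 and at 42.8, 73.5 and 70.7 CPM with hairpin 2, on either side of the scramble values of 35.5, 41.6 and 34.2 CPM. The hairpins differed by 1.77 ± 0.24 (adjusted p = 0.000867), while neither differed from scramble past the threshold (-1.03 ± 0.23 and 0.73 ± 0.23, adjusted p = 0.0725 and 0.0578). SESN1 and APAF1 were also higher with hairpin 2 (0.77 ± 0.21 and 0.62 ± 0.17, adjusted p = 0.0363 and 0.0413). NINJ1 was at 4.12, 2.73 and 3.97 CPM with hairpin 1 and at 1.16, 1.16 and 0.964 CPM with hairpin 2, above and below the scramble range, and differed by -1.73 ± 0.25 (adjusted p = 0.00142). AEN differed by -1.14 ± 0.27 (adjusted p = 0.0214), with 11.9, 17.2 and 23.8 CPM against 7.78, 6.39 and 9.95 CPM. The count of 8 was 5 without hairpin 1 replicate 3 or hairpin 2 replicate 1 or 2.

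Whether the hairpin effects differed between lines was tested by interaction terms in a fit of all 27 libraries. For hairpin 1, 0 of 33 members differed between MV411 and MOLM13, beside 0% of all genes in each direction, with 5 members and 1419 of all 21262 genes at an unadjusted p under 0.05 and 0 members called by DESeq2, beside 0.0564% of all genes higher and 0.0894% lower. Between SKNO1 and MOLM13, 2 members had a lower effect in SKNO1 and 0 a higher one, beside 1.46% and 3.1% of all genes. They were ZMAT3 (-1.73 ± 0.42, adjusted p = 0.0216) and DDB2 (-1.33 ± 0.37, adjusted p = 0.0361). ZMAT3 was at 63.1, 44.1 and 36.0 CPM in MOLM13 scramble and 120, 55.5 and 51.1 CPM with hairpin 1 there. DDB2 was at 41.6, 34.8 and 38.8 CPM in MOLM13 scramble and 51.1, 40.0 and 56.1 CPM with hairpin 1. In SKNO1 it was at 23.2, 14.4 and 23.0 CPM and at 15.3, 7.23 and 8.60 CPM. Between SKNO1 and MV411, 1 member had a higher effect in SKNO1 and 0 a lower one, beside 0.823% and 0.16% of all genes, and it was TP73 (1.88 ± 0.45, adjusted p = 0.0432).

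For hairpin 2, 0 members differed between MV411 and MOLM13, beside 0.0517% of all genes higher and 0.0188% lower. Here 3 members and 1387 of the 21262 genes had an unadjusted p under 0.05, and DESeq2 called 1 member, with a lower effect in MV411, beside 0.132% of all genes lower and 0.198% higher. Between SKNO1 and MOLM13 there were 0 as well, beside 0.296% and 0.193%, with 9 members and 2886 genes at an unadjusted p under 0.05. DESeq2 called 1 member higher and 3 lower, beside 0.978% and 0.8% of all genes. Between SKNO1 and MV411 the effect on TP73 was higher in SKNO1 (1.95 ± 0.46, adjusted p = 0.0367), 1 member higher and 0 lower beside 0.55% and 0.376%. The rise of TP63 with hairpin 2 in SKNO1 was not separated from that in MV411 by this test (0.58 ± 0.92, adjusted p = 0.892). Each of the 4 calls between lines was lost in 5 to 11 of 17 alternative fits, most of them with 1 library left out.

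Other p53 targets, a list of 46 genes, were described for comparison. BTG2, an antiproliferative gene, rose in all 6 comparisons of a hairpin with scramble, from 0.81 ± 0.17 (SKNO1, hairpin 2, adjusted p = 0.0101) to 1.62 ± 0.30 (MOLM13, hairpin 1, adjusted p = 0.0122). In MOLM13, 7 of 39 tested were higher and 0 lower with hairpin 1, and 5 and 0 with hairpin 2, beside 2.13% and 4.25% and then 3.39% and 6.03% of all genes. The ceramidase gene ACER2 rose by 1.52 ± 0.29 with hairpin 1 and the decoy receptor gene TNFRSF10C by 2.07 ± 0.44 with hairpin 2 (adjusted p = 0.0152 and 0.0187). In MV411, 6 of 38 were higher and 0 lower with hairpin 1, and 7 and 4 with hairpin 2, where the growth factor gene TGFA rose by 1.42 ± 0.23 and the apoptosis gene PMAIP1 fell by 0.98 on the log2 scale (adjusted p = 0.00219 and 0.0208). All genes there were 2.37% higher and 4.13% lower with hairpin 1 and 8.38% and 10.2% with hairpin 2, so the share of the list that was lower was near the background. In SKNO1, 1 of 39 was higher and 0 lower with hairpin 1, beside 0.255% and 0.277% of all genes, and 5 and 5 with hairpin 2, beside 5.54% and 5.69%. CDKN1A, which encodes the cell cycle inhibitor p21, rose there with hairpin 2 by 2.14 ± 0.31 (adjusted p = 0.00184). Its scramble level was lower in SKNO1 than in MOLM13 (-6.42 ± 0.40, adjusted p = 1.87e-07). Of the genes lower with hairpin 2, HSPA4L, CYFIP2 and DCP1B had the smallest p. Their values were -1.36 ± 0.24, -0.82 ± 0.15 and -0.87 ± 0.17 (adjusted p = 0.00417, 0.0063 and 0.00692). The list had a median of 0.46 with either hairpin in MOLM13. It was 0.37 with hairpin 1 and 0.19 with hairpin 2 in MV411, and 0.20 and then 0.033 in SKNO1.

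Cell cycle genes that p53 lowers through p21 and the DREAM repressor complex were a list of 20. All 20 were lower with each hairpin in MOLM13 (medians -1.91 and -1.98), and 19 and 20 were lower in MV411 (medians -2.45 and -1.99). Of all genes, 4.25% and 6.03% were lower in MOLM13 and 4.13% and 10.2% in MV411. In SKNO1, 0 passed with hairpin 1 by edgeR (1 at an unadjusted p under 0.05, median -0.26) and 9 were lower with hairpin 2 (median -0.79), beside 5.69% of all genes. The replication helicase gene MCM5 fell in MOLM13 by 1.66 with hairpin 1 and in MV411 by 2.24 (SE 0.15 and 0.22, adjusted p = 0.00104 and 0.00119). These genes follow proliferation in general, so the list is not specific to p53.

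Of 31 regulators and cofactors of p53, the checkpoint kinase gene CHEK1 fell in every comparison with scramble other than hairpin 1 in SKNO1. Its values were -1.88 ± 0.28 and -1.78 ± 0.28 in MOLM13, -2.35 ± 0.39 and -2.47 ± 0.39 in MV411 and -1.40 ± 0.26 with hairpin 2 in SKNO1 (adjusted p between 0.0018 and 0.00657). In MOLM13 this was the only regulator that passed with hairpin 1, and PRMT1 fell as well with hairpin 2. In MV411, 1 regulator was lower with hairpin 1, and 1 was higher and 5 lower with hairpin 2. In SKNO1 the acetyltransferase genes EP300 and CREBBP, whose proteins modify p53 and histones, rose with hairpin 2 by 0.71 ± 0.15 and 0.70 ± 0.17 (adjusted p = 0.0110 and 0.0214), with 3 other regulators lower. In MOLM13, 3.23% of the 31 were lower with hairpin 1 and 6.45% with hairpin 2, beside 4.25% and 6.03% of all genes. In MV411, 3.23% were lower with hairpin 1, beside 4.13%. With hairpin 2 there, 3.23% were higher and 16.1% lower, beside 8.38% and 10.2%. In SKNO1 with hairpin 2, 6.67% of 30 were higher and 10% lower, beside 5.54% and 5.69%. Apart from the lower shares with hairpin 2 in MV411 and SKNO1, these were near or below the background.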

How the data were processed

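Total RNA libraries (TruSeq Total Stranded kit, Ribo-Zero) were made per the labels' protocols. The submitters' processing notes name STAR 2.5.3, RSEM (version not given) and GRCh38.p7. The authors deposited 1 table of RSEM expected counts per gene, not normalized for depth or length. All 27 columns were matched to samples by label, and totals ran from 25063577 to 53291599. After rounding to whole numbers, edgeR 4.0.16 (run under R 4.3.3) was applied: filterByExpr (minimum count 10, minimum total 15), TMM, quasi-likelihood F-test, two-sided p adjusted by Benjamini-Hochberg over all genes tested. Each line was fitted alone for its hairpins, the 9 scramble libraries together for lines, and all 27 libraries for the 6 interactions, which makes 18 comparisons that share controls. The log2 CPM plotted used a prior count of 2.

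The genes and lists were chosen with earlier results of these data known. Members that are not named in a comparison are covered by its counts. Per-library values were given for TP63, TP73, MDM2, MDM4, PPM1D and the called members with the smallest p per comparison. Alternatives were DESeq2 1.42.0, RLE size factors, no filter, the replicate number as a term, abundant RNAs left out before scaling, and each library left out. All 9 same-number pairs of MV411 had correlated deviations (r from 0.12 to 0.79, mean 0.37). Different-number pairs had a mean of -0.19 but reached 0.59, for scramble replicate 1 with hairpin 2 replicate 3. The deviations were taken from group means, so the mean of -0.19 is tied to that of the same-number pairs and adds nothing to it. The labels state no pairing, so it was not established. Of non-zero values 30.4% were not whole (tolerance 1e-09), as RSEM shares reads between genes. The script was tested on simulated counts.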

Additional observations from a re-analysis of the deposited data

Results flagged for a closer look

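The difference in hairpin effect between lines, tested by an interaction term over 27 libraries with edgeR, passed the threshold for 4 results. The effect of hairpin 1 on ZMAT3 was lower in SKNO1 than in MOLM13 by -1.73 (SE 0.42, adjusted p = 0.0216), and every SKNO1 hairpin 1 library was below every SKNO1 scramble library. The effect of hairpin 1 on DDB2, which has a promoter with the pair of half-sites, was lower in SKNO1 than in MOLM13 by -1.33 (SE 0.37, adjusted p = 0.0361). The effect on TP73 was higher in SKNO1 than in MV411 by 1.88 with hairpin 1 (SE 0.45, adjusted p = 0.0432) and by 1.95 with hairpin 2 (SE 0.46, adjusted p = 0.0367). The TP73 results share the scramble libraries of both lines and are not independent. Remaining CARM1 differed between the same groups, at 42.1% in SKNO1 against 19.0% in MOLM13 and 26.0% in MV411 with hairpin 1 and at 15.5% in SKNO1 against 12.6% in MV411 with hairpin 2, and its part in these differences was not tested.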

How the results depend on the processing

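Counts of called members depended on the fit more than directions did, among the members whose signs were followed. The counts below lack the share of all genes called in the same fit, so they describe the fits and not the members. Where that share was given, it moved too. Genes called higher went from 0.255% to 3.3% with DESeq2 (SKNO1, hairpin 1). With the replicate block they went from 8.38% to 12.5% (MV411, hairpin 2) and from 2.13% to 1.87% (MOLM13, hairpin 1). For hairpin 1 and hairpin 2 against scramble, MOLM13 had 2 and 2 in the reported fit, 9 and 4 with DESeq2, 12 and 8 without the filter on low counts, and 1 with the replicate block for hairpin 2. MV411 had 4 and 7, and 8 and 11 with the replicate block. SKNO1 had 0 and 6, 4 and 10 with DESeq2, 3 and 10 without the filter, and 4 and 10 with the replicate block. Each of these counts of 10 was 8 higher and 2 lower, against 6 and 0 as reported. Between lines, hairpin 1 in SKNO1 against MOLM13 went from 2 to 7 with DESeq2, 6 without the filter and 6 with the block. Hairpin 1 in SKNO1 against MV411 went from 1 to 5 without the filter, 2 with the block and 0 with abundant RNAs left out. Hairpin 2 gave 1 with DESeq2 and 2 without the filter for MV411 against MOLM13 (reported 0). For SKNO1 against MOLM13 (reported 0) it gave 4 with DESeq2, 4 without the filter and 2 with the block, and for SKNO1 against MV411 (reported 1) 4, 3 and 3 in the same order. The cause was not tested. Same-number replicates had correlated deviations over 0.1 in 5 of 9 pairs in MOLM13 and 5 of 9 in SKNO1, so in neither line did every pair pass. In MOLM13 the 3 pairs of scramble with hairpin 1 did, at r = 0.47, 0.25 and 0.47, and the block ended the TNFRSF10B call there. In SKNO1 the pairs of scramble with hairpin 1 were at 0.49, 0.59 and 0.065. The block moved no other count by over 1.5 times.

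Leaving out 1 library at a time gave these ranges of called members. The share of all genes called in each of these fits is not given, here or above, so the ranges describe the fits and not the members. MOLM13 had 0 to 1 with hairpin 1 and 0 to 5 with hairpin 2, MV411 had 0 to 6 and 3 to 9, and SKNO1 had 0 to 2 and 3 to 7. Between hairpins the ranges were 0 to 0 in MOLM13, 1 to 4 in MV411 and 5 to 10 in SKNO1. Between scramble groups they were 11 to 13 (MV411 against MOLM13), 24 to 27 (SKNO1 against MOLM13) and 25 to 27 (SKNO1 against MV411). Interactions with hairpin 1 gave 0 to 0, 0 to 4 and 0 to 1, and with hairpin 2 0 to 0, 0 to 1 and 0 to 1, in the order MV411 against MOLM13, SKNO1 against MOLM13 and SKNO1 against MV411.

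Signs were followed for the members with the smallest p in each comparison, and not for all called members. Against scramble and between scramble groups, TP63, TP73, MDM2, MDM4 and PPM1D were followed as well. No called value among these changed sign. Log2 values near 0 that did not pass the test and changed sign are given by their lowest and highest values with 1 library left out. TP73 in MOLM13 with hairpin 1 ran from -0.38 to 0.18 and was 0.026 with the replicate block (reported -0.055). In MOLM13 with hairpin 2, MDM4 ran from -0.087 to 0.35 and PPM1D from -0.18 to 0.21. In MV411 with hairpin 1, TP63 ran from -2.13 to 0.84 and PPM1D from -0.059 to 0.15, and with hairpin 2 PPM1D ran from -0.081 to 0.15. PPM1D in SKNO1 with hairpin 1 ran from -0.12 to 0.092 and was 0.0034 with abundant RNAs left out. Between scramble groups, TP63 ran from -0.053 to 1.65 and PPM1D from -0.022 to 0.18 for MV411 against MOLM13, and MDM4 from -0.072 to 0.21 for SKNO1 against MOLM13. With 3 libraries per group, and few reads for TP63, GDF15 and SPATA18, a missed threshold does not show that a gene was unchanged.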
